A study of Mus musculus with 24 samples.

Results

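The immediate early transcription factors described here are 10 genes taken by name, Fos, Fosb, Jun, Junb, Jund, Egr1, Egr2, Egr3, Ier2 and Atf3, out of the 21671 genes listed in every sample, and all 10 were found in the tables. They were measured by RNA-Seq in 24 samples of splenic cells from C57/Bl6 mice at 8 weeks of age. Trp53+/+ and Trp53-/- mice were exposed to 7 Gy of whole-body ionizing radiation and their spleens were taken 4 h later (IR), or belonged to an unirradiated cohort (mock). After hypotonic lysis of red cells, B cells were those retained with B220 MicroBeads and non-B cells were whatever ran through the column, so that the non-B fraction is a mixture. In each fraction there were 4 mock and 4 IR samples from Trp53+/+ mice, and 2 mock and 2 IR samples from Trp53-/- mice, the study's p53 KO strain. By the study's methods each condition held 4 Trp53+/+ and 2 Trp53-/- mice, but no label ties a B sample to a non-B sample of the same spleen.

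Immediate early genes are switched on within minutes of a stimulus without new protein synthesis, usually through MAP kinases acting on factors already bound at their promoters, and their transcripts are short-lived. Fos, Fosb, Jun, Junb, Jund and Atf3 encode basic leucine zipper proteins that dimerize and bind AP-1 or related CRE sites. Egr1, Egr2 and Egr3 encode zinc finger factors known in lymphocytes for their induction by antigen receptor signalling, and Ier2 encodes a small nuclear protein of the same early wave.

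The promoters of Jun, Fos and Junb are shown because these 3 genes passed the test of the response to IR in Trp53+/+ cells. Promoter sequences from RefSeq (GRCm38.p6) were found for 7 of the 10 members, and the 250 bases upstream of the annotated start are given 5' to 3' on the strand of the gene, at chr4:95052223-95052472 on the minus strand for Jun, chr12:85473640-85473889 on the plus strand for Fos and chr8:84978749-84978998 on the minus strand for Junb. Capitals mark the motifs that were found, TGACATCA and TTACCTCA in Jun, the CRE half-site TGACG in Fos and Junb, and the TATA box TATAAA in Fos.
Jun: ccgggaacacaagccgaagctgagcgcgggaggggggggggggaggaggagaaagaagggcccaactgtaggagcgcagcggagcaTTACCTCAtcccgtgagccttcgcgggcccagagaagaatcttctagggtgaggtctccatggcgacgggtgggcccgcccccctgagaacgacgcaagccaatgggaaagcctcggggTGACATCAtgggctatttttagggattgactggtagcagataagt
Fos: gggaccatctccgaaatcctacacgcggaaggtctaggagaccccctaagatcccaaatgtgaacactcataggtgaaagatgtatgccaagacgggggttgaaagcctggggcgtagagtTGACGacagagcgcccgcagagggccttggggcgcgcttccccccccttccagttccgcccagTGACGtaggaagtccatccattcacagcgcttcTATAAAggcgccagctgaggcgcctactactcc
Junb: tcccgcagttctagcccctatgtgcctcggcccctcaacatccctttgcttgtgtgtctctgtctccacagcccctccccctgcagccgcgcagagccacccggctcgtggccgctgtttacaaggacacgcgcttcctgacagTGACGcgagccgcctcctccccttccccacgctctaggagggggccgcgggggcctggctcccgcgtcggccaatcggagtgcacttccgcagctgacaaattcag
The motifs were picked with the letters and the results already known, and a match is a description and not evidence of binding. In Jun the first base of TTACCTCA lay 164 bases and that of TGACATCA 45 bases before the start. Among all 32851 promoter windows of this length, searched on both strands, 0.73% held TTACCTCA and 2.93% held TGACATCA. Fos had the CRE half-site at 129 and 66 bases and the TATA box at 33 bases before the start, and Junb had the half-site at 106 bases. The half-site, which is also contained in the full CRE TGACGTCA, was present in 17.77% of windows, and the TATA box, searched on the strand of the gene alone, in 7.59%. None of the 3 windows held TGACGTCA, the AP-1 sites TGAGTCA or TGACTCA, the serum response element or the decamer half-site of the p53 motif. Those letters were in 1.55%, 4.46%, 4.46%, 1.47% and 7.13% of all windows, in that order, where the AP-1 share is the same for both spellings because each is the reverse complement of the other. Bases outside these windows were not searched, so the absence holds for the 250 bases alone. The study mapped p53 binding by ChIP-seq over a wider promoter region.

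By the GENCODE M1 annotation of mouse build NCBIM37 (mm9), Jun, Junb, Jund and Ier2 are genes of 1 exon, with 1522 to 3189 exonic bases, Egr2 and Egr3 have 2 exons, and Fos, Fosb and Atf3 have 4. Values are RPKM, reads per kilobase of exon scaled to the reads mapped to exons. The depth read off the steps between low values was 4.74 to 10.96 M reads per sample, with a median of 8.75, and Fosb and Atf3 did not exceed 2.49 RPKM in any B cell sample, where each value rests on few reads. Cdkn1a, the cell cycle inhibitor induced by p53, was at 69.6 to 97.8 RPKM in the 8 irradiated Trp53+/+ samples and at 0.562 to 5.87 in the other 16. Trp53 reads remained in the knockout samples, at 21.6 to 25.0 RPKM in mock and 34.6 to 41.8 after IR, so that the level of Trp53 does not by itself check the labels. All 6 B cell markers were detected in both fractions, with a summed level of 675 to 881 RPKM in the B220-selected samples and 181 to 470 in the flow-through. The 7 T cell markers summed to 32.1 to 74.4 RPKM in the former and to 287 to 606 in the latter, and the 5 neutrophil markers to 36.8 to 189.9 and 262 to 500.1. Elane was listed at 0 in 6 and Mpo in 1 of the 12 B cell samples, and among the B, T, NK and monocyte markers none was listed at 0 in any sample. Splenic cells are not expected to use olfactory and vomeronasal receptor genes, and 5.3 to 9.21% of these were above 0 in mock samples. Among irradiated Trp53+/+ samples the share ranged between 6.97 and 47.2% for the B fraction and between 8.51 and 51.3% for the flow-through. Irradiated Trp53-/- samples had shares of 6.76 and 13.0% (B) and of 8.3 and 8.51% (flow-through). The excess thus lay mainly in irradiated Trp53+/+ samples, though not in each of them. It therefore coincides with the contrast that the genotype comparison of the response rests on.

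**Figure D1:**
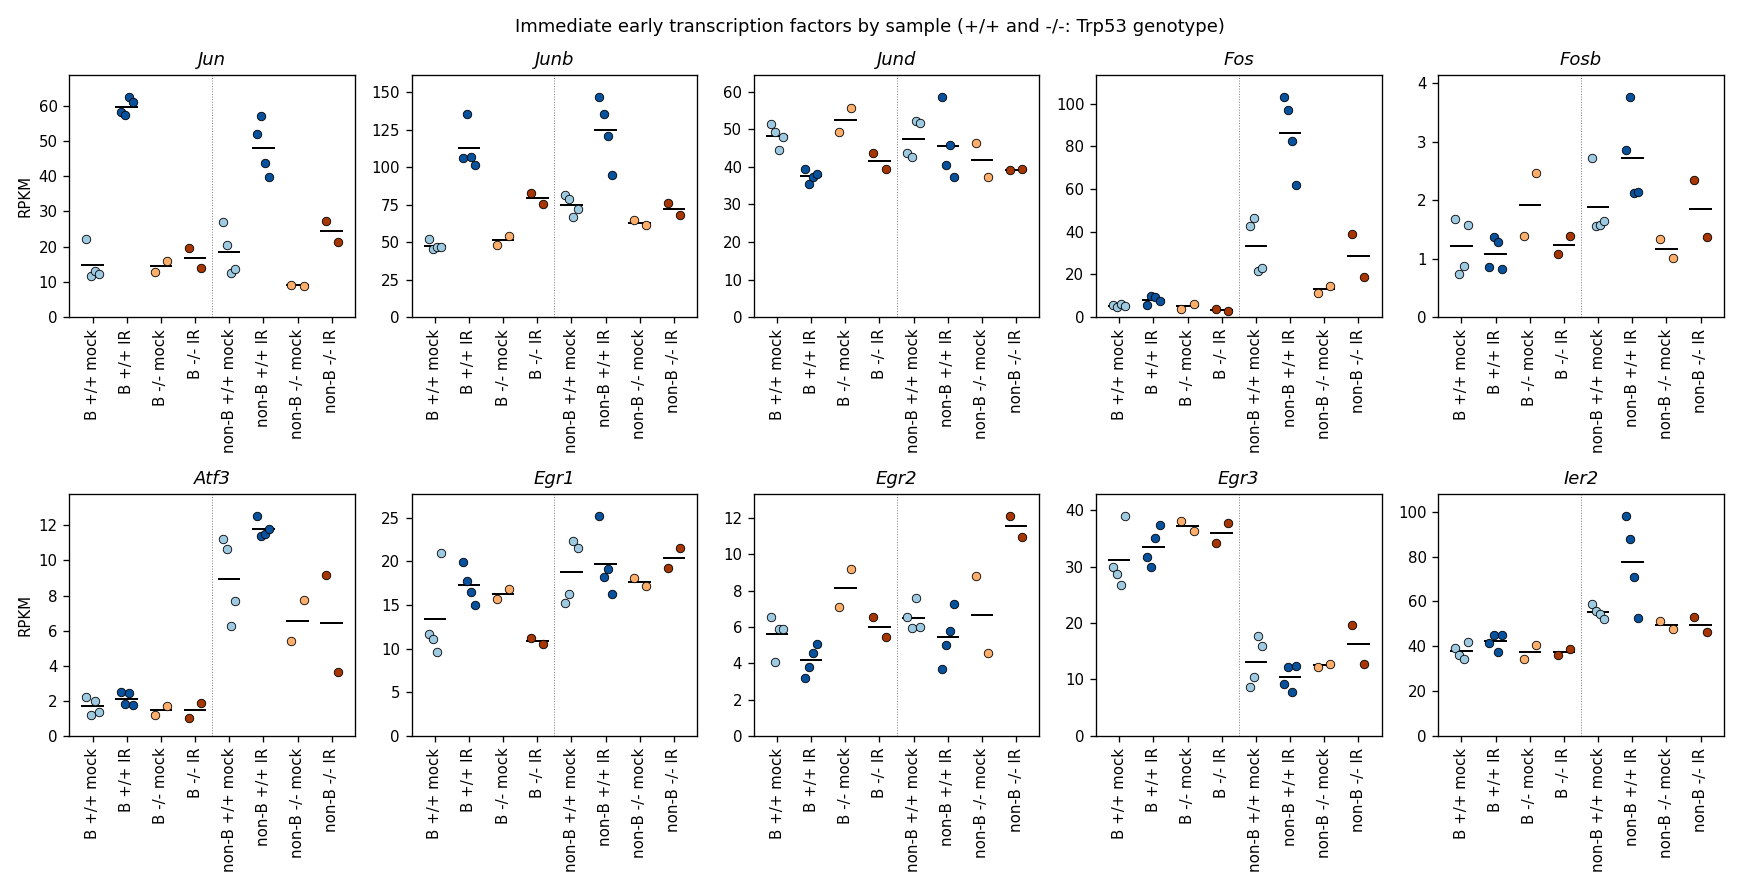
RPKM of each member (vertical axes, linear and starting at 0) in the 24 samples, with points for samples and black bars for group means, B cells left and non-B cells right of the dotted line. Jun in B cells stands at 57.4 to 62.5 RPKM in irradiated Trp53+/+ samples and at or below 22.1 in every other B cell group.

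In unirradiated Trp53+/+ mice the members were carried at very different levels. Junb and Jund, 2 of the 3 Jun proteins, were the most abundant in B cells, with 47.7 ± 2.87 and 48.3 ± 2.96 RPKM (mean ± SD, n = 4 here and below unless stated), whose ranges overlapped. Ier2 at 37.9 ± 3.44 and Egr3 at 31.1 ± 5.44 RPKM came next, and these overlapped each other too. Jun at 14.7 ± 4.93 and Egr1 at 13.3 ± 5.13 RPKM formed the middle of the order and could not be separated by their spread, followed by Egr2 at 5.60 ± 1.07 and Fos at 5.41 ± 0.69 RPKM, which also overlapped. Atf3 at 1.70 ± 0.50 and Fosb at 1.21 ± 0.48 RPKM were lowest and overlapped. In non-B cells Junb at 74.9 ± 6.73 RPKM stood clear at the top and Fosb at 1.88 ± 0.57 RPKM at the bottom. Between them came Ier2 at 55.3 ± 2.69, Jund at 47.6 ± 5.12, Fos at 33.3 ± 12.9, Egr1 at 18.8 ± 3.61, Jun at 18.4 ± 6.75, Egr3 at 13.2 ± 4.27, Atf3 at 8.96 ± 2.37 and Egr2 at 6.52 ± 0.75 RPKM. The range of each of these overlapped that of its neighbour in the order.

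The comparison of both fractions at rest asked which members belong to which compartment. Non-B samples held more Fos, Atf3 and Junb and less Egr3 than B samples, and 4 of 10 members were called, against 24.6% of the 14598 genes tested (called means a limma adjusted p under 0.05 and a change over 0.58 on the log2(RPKM + 0.5) scale). Fos stood at 21.6, 22.9, 42.6 and 46.2 RPKM in the 4 non-B samples and at 4.64 to 6.20 in the 4 B samples. The fractions did not overlap, and the difference was 2.44 ± 0.24 (log2 ± SE, adjusted p = 5.33e-07). Atf3, a stress-induced partner and repressor in the CREB family, was 6.27 to 11.2 RPKM in non-B and 1.19 to 2.22 in B cells, again without overlap, with a difference of 2.10 ± 0.19 (adjusted p = 2.74e-07). Junb differed by 0.64 ± 0.12. Egr3 went the other way, at 8.67 to 17.6 RPKM in non-B and 26.8 to 39.0 in B cells, and was lower by 1.25 on the log2 scale (SE 0.20, adjusted p = 7.76e-05). Ier2 and Egr1 differed by 0.54 ± 0.14 and 0.53 ± 0.20, past the p threshold (adjusted p = 0.00522 and 0.0441) and under that on size. Egr1 was called without B mock replicate 4 (0.76) or non-B mock replicate 1 (0.62) or 2 (0.59), and Ier2 without B mock replicate 4 (0.59). These are bulk samples of unlike cell mixtures, in which more cells of a type and more RNA per cell cannot be told apart.

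Among the unirradiated non-B samples of Trp53+/+ mice, those numbered 1 and 2 stood apart from 3 and 4, in Fos and Atf3 and in each list of cell type markers. In the Trp53+/+ mock samples numbered 1 to 4 the summed neutrophil markers were 489, 446, 262 and 301 RPKM, and Fos was 42.6, 46.2, 21.6 and 22.9. Both were higher in samples 1 and 2 than in 3 and 4, and so was Atf3, at 11.2, 10.6, 6.27 and 7.70 RPKM. The erythroid markers split them the same way, with sums of 261, 249, 115 and 109.9 RPKM, and so did the monocyte and plasma cell markers. T cell markers (349, 364, 498 and 496 RPKM) and those of B, NK and megakaryocyte cells were lower in samples 1 and 2. Of the other members Jun (27.0, 20.5, 12.4 and 13.7 RPKM), Junb and Ier2 were higher there, and Jund, Egr1 and Egr3 lower. The split was thus not particular to neutrophil markers or to Fos and Atf3. After IR the neutrophil sums were 500.1, 455, 372 and 302, and Fos was 103, 96.8, 82.7 and 61.7, whereas Atf3 stayed between 11.4 and 12.6. The non-B Trp53-/- mock samples, however, had neutrophil sums of 302 and 392, inside the range of the Trp53+/+ mock samples, with Fos at 11.4 and 14.7 RPKM, below all of them. In the 2 irradiated Trp53-/- non-B samples the order was the opposite, with neutrophil sums of 339 and 395, Fos at 38.9 and 18.8 and Atf3 at 9.16 and 3.66 RPKM. The part of neutrophils in the level of Fos was not tested.

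**Figure D2:**
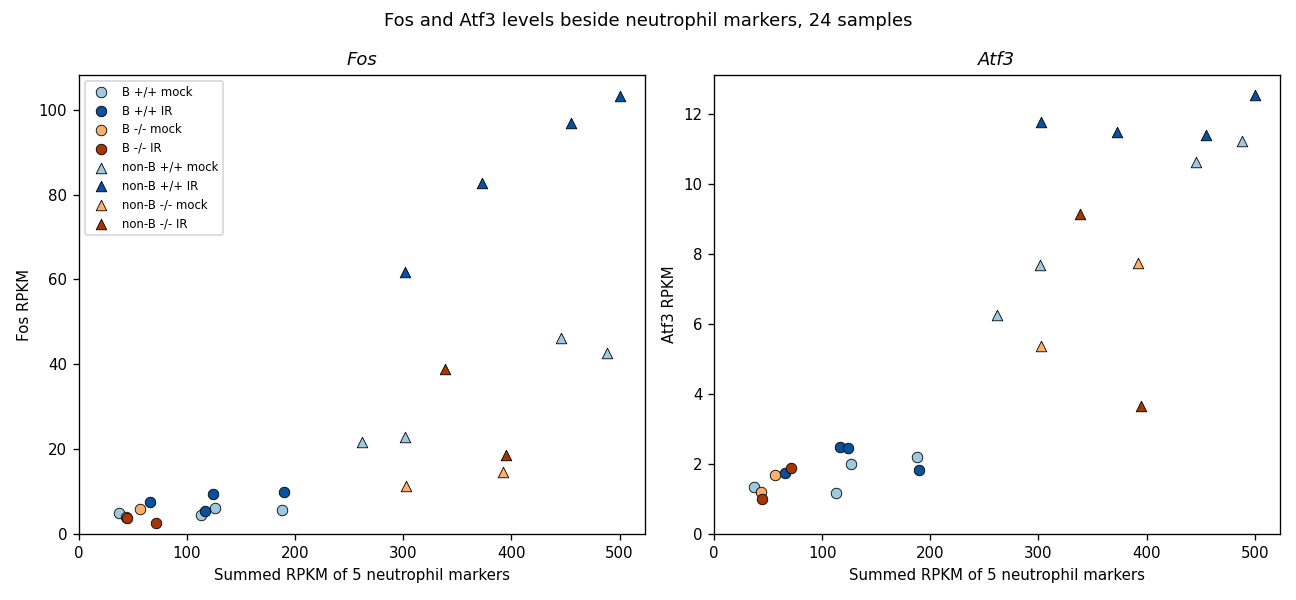
Fos (left) and Atf3 (right) RPKM against the summed RPKM of 5 neutrophil markers, 1 point per sample, circles for B and triangles for non-B cells, colours for genotype and treatment. All 12 non-B samples lie at 262 RPKM of markers or more, all B samples at 189.9 or less. Fos is at 61.7 RPKM or more in irradiated Trp53+/+ non-B samples and at 46.2 or less in mock ones.

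In B cells of Trp53+/+ mice, IR was followed by a rise of Jun and Junb. These were 2 of 10 members called, both upward, against 24.7% of the 13821 genes tested. Jun, the main transactivating partner in AP-1, went from 11.6, 12.3, 13.0 and 22.1 RPKM in mock to 57.4, 58.2, 61.0 and 62.5 after IR. The groups were well apart, the IR samples lay within a narrow band, and the change was 2.03 ± 0.17 on the log2 scale (adjusted p = 1.26e-06), or 4.09-fold. Junb, which shares partners with Jun and is the weaker activator, went from 45.3, 46.8, 47.1 and 51.9 RPKM to 101, 106, 107 and 136, by 1.22 ± 0.09 (adjusted p = 3.33e-07) or 2.33-fold. There was no overlap here either.

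The third Jun gene had a smaller difference of the opposite sign. Jund, which is expressed constitutively in most cells, was 44.5, 47.9, 49.4 and 51.5 RPKM in mock and 35.6, 37.3, 38.1 and 39.4 after IR. These groups did not overlap, and the difference of -0.36 ± 0.06 had an adjusted p of 0.000577 but stayed under the threshold on size. Fos, the partner of the Jun proteins, was 4.64, 5.08, 5.71 and 6.20 RPKM in mock and 5.56, 7.70, 9.48 and 9.85 after IR. One IR sample lay among the mock samples, and the difference of 0.53 ± 0.19 (adjusted p = 0.0353) was just under the threshold on size. Without that sample, IR replicate 1, it was 0.69 with an adjusted p of 0.00702, and without mock replicate 3 it was 0.59.

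The other members passed neither threshold in these cells. Egr1 was 9.64, 11.1, 11.7 and 20.9 RPKM in mock and 14.98, 16.5, 17.8 and 19.9 after IR, so that a single mock sample lay above all IR samples. The difference was 0.42 ± 0.19 (adjusted p = 0.0781), and without that sample, mock replicate 4, it was 0.65 (adjusted p = 0.000386). Egr2 differed by -0.39 ± 0.17 (adjusted p = 0.0757), and the 95% intervals of Egr3, Ier2, Atf3 and Fosb, which are not adjusted for the number of genes, were -0.12 to 0.35, -0.03 to 0.34, -0.19 to 0.74 and -0.60 to 0.43. By an exact two-sided permutation test of 4 against 4 samples, Jun, Junb and Jund reached 0.0286, the smallest p this design allows (0.0816 adjusted over 20 tests of 10 members in both fractions). Groups without overlap were found for 46.2% of all genes tested in B cells, so that 3 of 10 members is not more than the background.

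In B cells of Trp53-/- mice Jun was not called. It was 12.9 and 15.97 RPKM in mock and 13.9 and 19.6 after IR (n = 2 each). The groups overlapped and the difference was 0.19 ± 0.25 (adjusted p = 0.575, 95% interval -0.34 to 0.73). Junb did rise, from 48.1 and 54.4 to 75.6 and 82.8 RPKM, by 0.62 ± 0.13 (adjusted p = 0.00182), and was the 1 member of 10 called, against 24.3% of all genes. This call lies close to the threshold on size, since leaving out replicate 1 of either group gave 0.54 (mock) and 0.56 (IR).

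Jund was at 49.3 and 55.7 RPKM in mock and 39.3 and 43.6 after IR, a difference of -0.34 ± 0.09 (adjusted p = 0.0108). Fos went from 4.01 and 6.07 to 2.67 and 3.84 RPKM and Egr1 from 15.7 and 16.9 to 10.5 and 11.2. In both genes the 2 IR samples lay below the 2 mock samples, but the differences of -0.55 ± 0.27 and -0.56 ± 0.26 did not pass (adjusted p = 0.123 and 0.108).

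**Figure D3:**
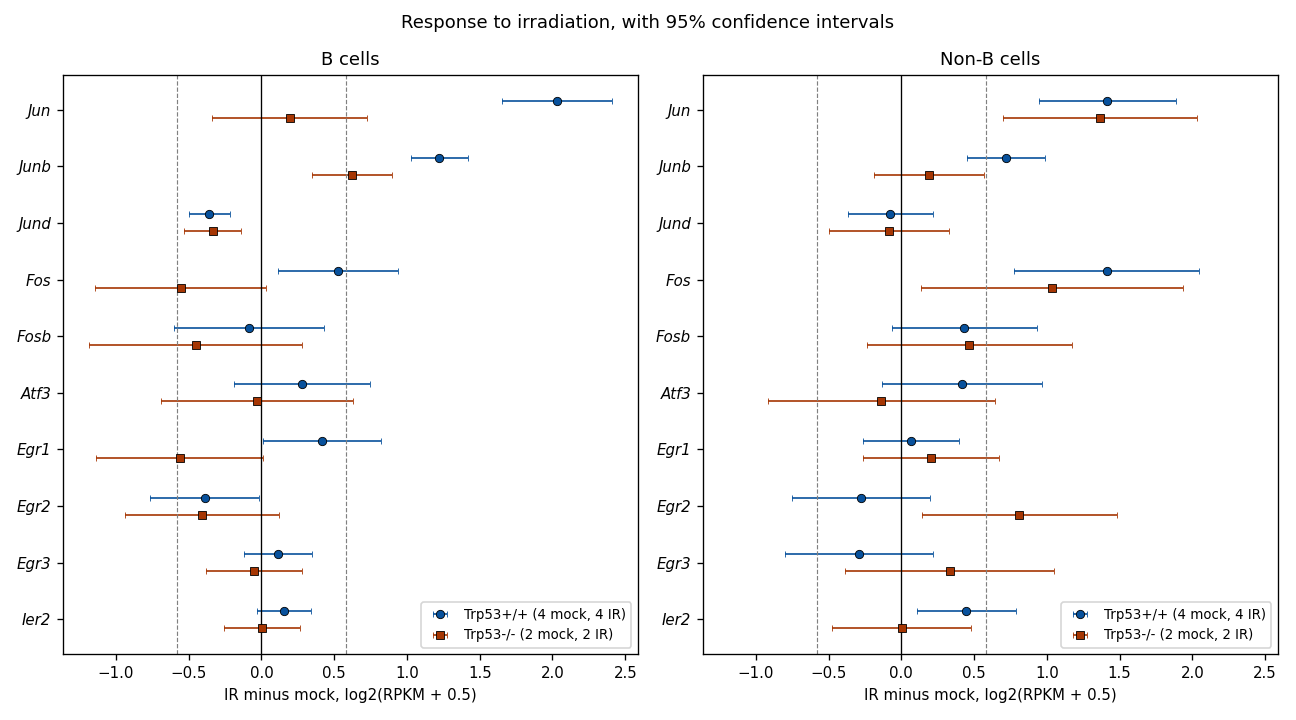
Difference between IR and mock (horizontal axis, log2(RPKM + 0.5)) for each member, in B cells (left) and non-B cells (right), for Trp53+/+ (circles) and Trp53-/- (squares) mice, with unadjusted 95% confidence intervals and dashed lines at the size threshold of 0.58. Jun in B cells is at 2.03 in Trp53+/+ and 0.19 in Trp53-/-, while in non-B cells it is at 1.42 and 1.37.

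The difference between the genotypes was tested directly, as the Trp53+/+ response minus the Trp53-/- response. In B cells 3 of 10 members were called, all with the larger response in Trp53+/+ cells, against 12% of all genes. For Jun the difference was 1.84 ± 0.30 (adjusted p = 0.00149), equal to 3.57-fold. For Fos it was 1.08 ± 0.33 (adjusted p = 0.0394), between responses of 0.53 and -0.55 that were themselves not called. For Junb it was 0.60 ± 0.15 (adjusted p = 0.0189), between responses of 1.22 and 0.62. The calls of Fos and Junb rested on single libraries. Without mock replicate 2 of the Trp53-/- samples Fos was at 0.81 (adjusted p = 0.188) and Junb at 0.51 (0.0985), and without IR replicate 2 at 0.85 (0.127) and 0.53 (0.0626), whereas Jun was between 1.60 and 2.08 and called whichever sample was left out. Leaving out Trp53+/+ mock replicate 1, 2 or 4 or IR replicate 2, 3 or 4 also ended the call of Fos (adjusted p = 0.0502 to 0.0733), and that of Junb ended without Trp53+/+ mock replicate 2 (0.57) or IR replicate 2 (0.51). Quantile normalization ended both calls (Fos adjusted p = 0.0760, Junb 0.49 in size), and so did the receptor genes' background level as a covariate (0.0546 and 0.49) or their share above 0 (0.0509 and 0.47), while Jun was called under each.

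Egr1 came close, at 0.98 ± 0.32 (adjusted p = 0.0521), and without mock replicate 4 of the Trp53+/+ samples it was at 1.21 (adjusted p = 0.000764), and without their IR replicate 4 at 1.05 (adjusted p = 0.0483). For Jund the difference was -0.02 (95% interval -0.26 to 0.22) and for Egr2 0.02 (-0.63 to 0.67). In mock B cells no member was called between the genotypes by limma, against 0.0506% of all genes called. At an unadjusted p under 0.05, a looser cut whose share over all genes is not given, 1 of 10, Egr2, passed (0.51 ± 0.21). Mock Jun was alike in level, 14.7 ± 4.93 RPKM in Trp53+/+ and 14.4 ± 2.17 (n = 2) in Trp53-/-, a difference of 0.01 with an interval of -0.45 to 0.47.

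**Figure D4:**
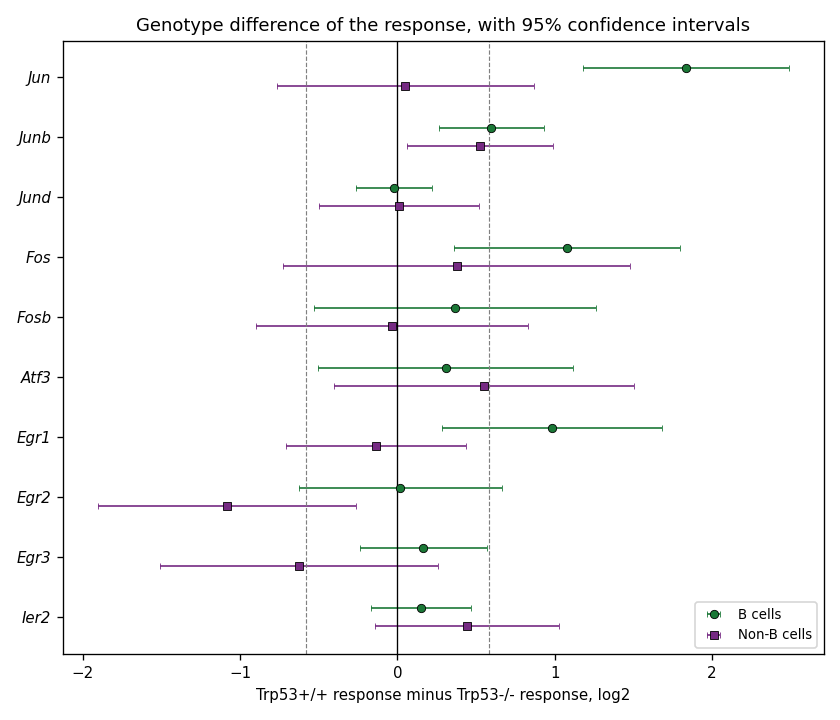
Trp53+/+ response minus Trp53-/- response (horizontal axis, log2) for each member in B cells (circles) and non-B cells (squares), with unadjusted 95% confidence intervals and dashed lines at 0.58. Jun is at 1.84 for the circles and 0.05 for the squares, and the interval of the latter runs from -0.77 to 0.87.

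In non-B cells of Trp53+/+ mice Fos rose together with Jun and Junb. These 3 of 10 members were called, all upward, against 9.85% of the 14018 genes tested. Fos went from 21.6, 22.9, 42.6 and 46.2 RPKM in mock to 61.7, 82.7, 96.8 and 103 after IR, without overlap, by 1.41 ± 0.29 (adjusted p = 0.00814) or 2.66-fold. Jun went from 12.4, 13.7, 20.5 and 27.0 to 39.7, 43.8, 51.8 and 57.1 RPKM, also without overlap, by 1.42 ± 0.22 (adjusted p = 0.00137) or 2.67-fold. Junb went from 66.9, 71.9, 79.0 and 81.7 to 95.1, 121, 136 and 147 RPKM, by 0.72 ± 0.12 (adjusted p = 0.00279) or 1.64-fold. Between samples of the same number, Fos was 2.42, 2.09, 3.82 and 2.69 times higher after IR and Jun 1.92, 2.79, 3.53 and 2.89 times. Both genes were higher after IR for each of the 4 numbers, which groups without overlap give under any pairing. No label ties a mock sample to an IR sample. With the receptor genes' background level as a covariate Fos was no longer called (1.75, adjusted p = 0.0887), and the same held with their share above 0 (1.59, adjusted p = 0.0603).

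Among the remaining members Ier2, Fosb and Atf3 had the largest estimates. Ier2 was 52.3, 54.5, 55.7 and 58.7 RPKM in mock and 52.8, 71.1, 87.9 and 98.3 after IR. The spread widened and the lowest IR sample lay within the mock range, with a difference of 0.45 ± 0.15 (adjusted p = 0.0650), or 0.62 (adjusted p = 0.00423) without that sample, IR replicate 4. Atf3 was 6.27, 7.70, 10.6 and 11.2 in mock and 11.4, 11.5, 11.8 and 12.6 RPKM after IR. These groups did not overlap, but they nearly touched, and the difference of 0.41 ± 0.25 had an adjusted p of 0.266. Fosb, the close relative of Fos, differed by 0.43 ± 0.23 (adjusted p = 0.201). The 95% intervals of Jund, Egr1, Egr2 and Egr3 were -0.37 to 0.22, -0.26 to 0.40, -0.75 to 0.20 and -0.80 to 0.22. By the exact permutation test Fos, Jun, Junb and Atf3 reached 0.0286 (0.0816 adjusted over the 20 tests), the groups of 4 of 10 members being without overlap as were those of 22.1% of all genes.

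In non-B cells of Trp53-/- mice Jun was 8.96 and 9.21 RPKM in mock and 21.4 and 27.4 after IR, well apart, and the difference of 1.37 ± 0.30 was close in size to that of Trp53+/+ cells. It did not pass over all genes (adjusted p = 0.0767, unadjusted p = 0.000828), and with the replicate number as a block it did (adjusted p = 0.0425), as it did without Trp53+/+ mock replicate 1 (adjusted p = 0.0416). By limma no member was called in the fit without the block, against 0.442% of all genes called. At the looser unadjusted p under 0.05, whose share over all genes is not given, 3 of 10 passed. Fos was 11.4 and 14.7 RPKM in mock and 18.8 and 38.9 after IR, without overlap but with a wide gap between the IR samples (1.03 ± 0.41, adjusted p = 0.248). Egr2 was 4.56 and 8.80 in mock and 10.97 and 12.1 RPKM after IR (0.81 ± 0.31, adjusted p = 0.222). Junb was 61.3 and 64.8 in mock and 68.2 and 76.3 after IR (0.19 ± 0.17, adjusted p = 0.654).

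Heat-shock genes also differed with treatment. The 10 genes of a handling and heat-shock list summed to 485 and 545 RPKM in Trp53-/- non-B mock samples and to 730 and 756 after IR, and in Trp53+/+ non-B cells to 502 to 548 in mock and 426 to 514 after IR. In Trp53+/+ B cells, where Jun and Junb rose, the sums were 464 to 586 in mock and 573 to 674 after IR. Hspa1a is a stress-induced chaperone with a near-identical copy, Hspa1b, that makes its counts uncertain. In Trp53-/- non-B cells it was at 1.03 and 1.33 RPKM in mock and at 6.73 and 20.7 after IR. For Trp53-/- B cells Hspa1a was at 0.195 and 0.284 RPKM in mock and at 0.46 and 4.17 after IR. It rose in Trp53+/+ mice too, by 1.37 in B cells and, from 1.34 to 5.92 RPKM in mock to 6.10 to 18.6 after IR, by 1.56 in the non-B fraction. Within the irradiated Trp53-/- non-B samples the sample with more Hspa1a was also the one with more Fos and more Jun. In the irradiated Trp53+/+ non-B samples numbered 1 to 4, Hspa1a was 6.10, 18.6, 10.3 and 11.7 RPKM. Fos was 103, 96.8, 82.7 and 61.7 there, and Jun 51.8, 57.1, 43.8 and 39.7. The most Fos thus went with the least Hspa1a, and the most Jun with the most Hspa1a. In Trp53-/- B cells the sums were 468 and 469 in mock and 604 and 838 after IR, with Jun higher in the sample of the larger sum. The irradiated Trp53+/+ B samples numbered 1 to 4 had sums of 626, 674, 615 and 573. Jun was 58.2, 57.4, 62.5 and 61.0 RPKM in them, lowest in the sample of the largest sum. After IR, 7 of the 10 genes rose in Trp53-/- B cells and 2 of 10 in Trp53-/- non-B cells, while Trp53+/+ mice had 1 up in B cells, and 1 up and 1 down in the non-B fraction. Of all genes tested 24.3%, 0.442%, 24.7% and 9.85% were called in these 4 comparisons, in that order. The part of these genes' change in the members' change was not tested.

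In non-B cells the genotype difference was called for no member by limma, against 6.55% of all genes called. At the looser unadjusted p under 0.05, whose share over all genes is not given, 2 of 10 passed. For Jun it was 0.05 ± 0.37 with a 95% interval of -0.77 to 0.87, which leaves out a difference as large as the 1.84 estimated in B cells. For Fos it was 0.38 ± 0.50 (-0.73 to 1.48), an interval too wide to tell it from that in B cells. Junb was at 0.52 ± 0.21 (adjusted p = 0.148) and Egr2, whose level was lower after IR in Trp53+/+ and higher in Trp53-/- samples, at -1.09 ± 0.37 (adjusted p = 0.0992). Single libraries decided here too. Egr2 was called without Trp53-/- mock replicate 1 (-1.52, adjusted p = 0.0474), and Junb and Ier2 were called without Trp53+/+ IR replicate 4 (0.65 and 0.61, adjusted p = 0.0291 and 0.0498).

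Mock non-B samples of the genotypes were not alike in Fos and Jun. Fos was 11.4 and 14.7 RPKM in Trp53-/- and 21.6 to 46.2 in Trp53+/+ mock samples, and Jun 8.96 and 9.21 against 12.4 to 27.0. In both genes the Trp53-/- samples lay below all 4 Trp53+/+ samples. The differences of -1.25 ± 0.36 and -0.91 ± 0.26 had unadjusted p of 0.00464 and 0.00494, but over all genes adjusted p of 0.803 and 0.815. No member was called by limma, against 0.0428% of all genes called. At the looser unadjusted p under 0.05, whose share over all genes is not given, these 2 of 10 passed. All 10 estimates were negative, from -0.02 for Egr3 to -1.25 for Fos, beside a median of 0.008 over all genes tested. They rest on the same Trp53-/- mock samples and were not tested as a set, and the share of negative estimates over all genes is not given. Since the responses of the genotypes start from these unlike mock levels, the levels after IR are also given. Jun after IR was 39.7 to 57.1 RPKM in Trp53+/+ and 21.4 and 27.4 in Trp53-/- non-B cells.

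Whether the dependence on Trp53 differed between the fractions was tested in a comparison added after the values of Jun had been seen, as the genotype difference in B cells minus that in non-B cells, over all 24 samples. For Jun it was 1.79 ± 0.51 (unadjusted p = 0.00222, adjusted p = 0.204). No member was called by limma, against 0.226% of all genes called. At the looser unadjusted p under 0.05, whose share over all genes is not given, 3 of 10 (Jun, Egr1 and Egr2) passed. So a larger dependence of Jun in B cells is not established over all genes.

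Within Trp53+/+ mice, the responses of the fractions were also set against each other, as non-B minus B. No member was called by limma, against 18.8% of all genes called. At the looser unadjusted p under 0.05, whose share over all genes is not given, 2 of 10 passed. For Junb the value was -0.50 ± 0.17 (adjusted p = 0.0343), under the threshold on size. Fos was at 0.88 ± 0.34 (adjusted p = 0.0599) and Jun at -0.62 ± 0.31 (adjusted p = 0.148). Jun was called without B mock replicate 1 (-0.82), Junb without non-B IR replicate 1 (-0.59), and Fos without non-B mock replicate 1 or 2, B IR replicate 2 or non-B IR replicate 4 (0.98 to 1.07).

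The study's rule for p53-dependent genes asks whether the fold change in Trp53+/+ cells is at least 1.5 times that in Trp53-/- cells. Applied to the called members, Jun at 3.57 times and Junb at 1.51 times met it in B cells, Junb by a small margin. In non-B cells Fos at 1.30, Jun at 1.04 and Junb at 1.44 times did not. Junb of B cells and Fos and Junb of non-B cells cross this limit with the processing, since over the settings tried on all samples they were at 1.39 to 1.61, 1.29 to 1.61 and 1.43 to 1.63 times, while Jun in B cells met it under each. The rule is a ratio of fold changes and takes no account of their error, which the tests above give.

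The genes around the members in the pathway were followed in lists. Of 6 other AP-1 genes tested in B cells, 2 rose and 1 fell after IR in Trp53+/+ mice, with a list median of 0.28 against 0.01 over all genes, of which 24.7% were called. Fosl1 entered the test through the irradiated Trp53+/+ samples alone, since no mock sample of these mice exceeded 0.122 RPKM, and without it 1 of 5 rose. Fosl1 and Fosl2, the Fra proteins that partner Jun, rose from 0.06 ± 0.05 to 1.91 ± 0.25 and from 2.30 ± 0.24 to 5.62 ± 1.81 RPKM, by 2.10 and 1.09 on the log2 scale, and Batf3 fell by 0.81. In Trp53-/- B cells Fosl1 alone was called (0.75), and so it was for the genotype difference (1.35), against 24.3% and 12% of all genes. Without Fosl1, 0 of 5 were called in either comparison. In non-B cells Fosl2, already at 30.4 ± 9.28 RPKM in mock, rose to 60.8 ± 12.3 (1.02) and Batf rose by 0.61, 2 of the 5 tested, against 9.85% of all genes. Of the 2 Egr family and corepressor genes tested none passed in either fraction by limma.

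Among 14 upstream factors of the SRF, TCF, MEF2 and CREB families, Crem rose in both fractions of Trp53+/+ mice, where 24.7% (B) and 9.85% (non-B) of all genes were called. Crem, a cAMP-responsive relative of CREB, went from 7.37 ± 0.64 to 14.2 ± 1.80 RPKM in B cells (0.90), while the non-B values were 5.18 ± 0.48 and 13.9 ± 4.19 (1.30). It was the only factor of the 14 called in non-B cells, and in B cells Elk3 fell by 0.87. The median over the list was -0.10 in the non-B fraction, near that of all genes (-0.03). In Trp53-/- B cells Elk1 rose (0.96) and Mkl1 fell by 0.84.

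Of other immediate early genes, 9 of 26 rose and 1 fell in Trp53+/+ B cells (median 0.38), and 12 of 27 rose and 1 fell in non-B cells (median 0.51, against -0.03 over all genes), beside 24.7% and 9.85% of all genes called. In B cells Ier5l and Cyr61 entered the test through the irradiated Trp53+/+ samples alone, and without these 7 of 24 rose. With the largest changes came Plk2, a polo-like kinase gene also known as a p53 target, at 4.68 and 4.06, Ier5l at 4.04 and 2.92, and Nr4a3, an orphan nuclear receptor, at 1.79 and 1.66. Arc (1.77, B cells) and Ptgs2, the inducible prostaglandin synthase (2.28, non-B cells), completed the 4 largest of each fraction. In Trp53-/- B cells 5 rose and 5 fell, where 24.3% of all genes were called, among them Klf2 (-1.92), Plk3 (1.28), Klf4 (-1.18) and Arc (0.96). In Trp53-/- non-B cells none of 27 was called by limma, against 0.442% of all genes. The genotype difference was called upward for 7 and downward for 2 genes of the B fraction, or for 5 and 2 of 24 without Ier5l and Cyr61. In the non-B fraction it was called for 3 and 1, where the 1 was Myc at -1.45. Of all genes 12% and 6.55% were called for this difference.

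Phosphatases and other feedback inhibitors of MAP kinases, themselves early genes, gave 4 of 12 upward in Trp53+/+ B cells and 3 of 13 in non-B cells, none downward, against 24.7% and 9.85% of all genes called. Dusp8 entered the B cell test through irradiated samples alone, at 0.041 to 0.114 RPKM in mock and 0.552 to 1.197 after IR, and without it 3 of 11 rose. Dusp1, which dephosphorylates JNK and p38, went from 7.92 ± 1.25 to 18.1 ± 7.74 RPKM in B cells (1.07), and its non-B values were 52.9 ± 15.3 and 102 ± 23.9 (0.96). Socs3 was called in both (0.75 and 0.97), Dusp8 and Dusp5 (1.19 and 0.80) in B cells, and Dusp4 (0.97) in the non-B fraction. In mock samples 7 of 13 were higher and 1 was lower in non-B than in B cells, against 24.6% of all genes called, with Dusp1 higher by 2.63.

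RNA of erythroid markers was lower after IR in Trp53+/+ mice. In Trp53+/+ mice 4 of 6 erythroid markers fell in each fraction, where 24.7% (B) and 9.85% (non-B) of all genes were called. In B cells Car1 entered the test through the mock samples of these mice alone, and without it 3 of 5 fell. The summed erythroid markers went from 44.1 to 112 RPKM in mock to 17.0 to 28.3 after IR in B samples. In non-B samples they went from 109.9 to 261 down to 22.0 to 67.4. In Trp53-/- mice none of the 6 was called by limma in either fraction, against 24.3% (B) and 0.442% (non-B) of all genes. Their sums overlapped, at 33.2 and 163 RPKM in mock and 17.0 and 91.7 after IR in B samples. The non-B sums were 56.1 and 197 in mock and 72.9 and 75.5 after IR. Monocyte and macrophage markers summed to 322 to 366 RPKM in mock and 349 to 488 after IR in non-B cells, with none of 6 called by limma, and to 300 to 398 and 217 to 336 in B cells, where 1 of 6, Emr1, fell. Of 6 B cell markers Cd22 alone was called after IR in Trp53+/+ mice, downward in both fractions (-0.61 and -0.79). The 4 megakaryocyte markers summed to 47.3 and 63.7 RPKM in mock and to 16.8 and 25.3 after IR in Trp53-/- non-B cells, where Ppbp fell by 1.58, and the genotype difference in that fraction was called for Ppbp (1.67) and Pf4 (1.60). The part of these shifts in the members' values was not tested.

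Patterns most like those of 4 members were sought over all 24 samples among the 14688 genes that exceeded 1 RPKM somewhere, by Pearson's r of log2(RPKM + 0.5), as a description over samples that share fractions and treatments. Nearest to Jun were Rnf169 (0.930), Slc19a2 (0.924) and Gtse1 (0.922), and nearest to Fos A530013C23Rik (0.977), Tarm1 (0.974) and Sycp2 (0.973). Atf3 was followed by Ugt1a7c, Gcnt2 and Ltb4r1 (0.980, 0.980 and 0.979). Egr1 had no neighbour as close, the first being Slc25a18 (0.836), Med15 (0.824) and Mark4 (0.791). Within the members Fos was nearest to Atf3 (0.937) and Ier2 (0.907), with Fosb at 0.712 and Egr3 at -0.879, and Jun was nearest to Junb (0.857), while Jun and Fos were at 0.403.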

How the data were processed

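The authors sequenced rRNA-depleted RNA (non-stranded TruSeq v2 libraries), masked bases under quality 20, aligned reads to mm9 (TopHat2; the submitters' processing notes give version 2.0.8), kept 1 of duplicated reads, counted with featureCounts (1.4.5) and deposited RPKM values per gene, scaled to reads on exons. Removing duplicates caps high counts, and counting without strand cannot separate antisense reads. From whole-read steps, with GENCODE M1 lengths for 91.9% of genes, depth was estimated; 58.7 to 70.6% of low values lay within 0.1 of a whole read (20% by chance), too few for a count test.

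Genes exceeding 1 RPKM in any Trp53+/+ sample of a fit were tested with limma 3.58.1 (R 4.3.3; lmFit, eBayes with trend) on log2(RPKM + 0.5), which understates changes of low genes, in 12 samples per fraction, or 16 Trp53+/+ samples between fractions. The study's own test used read counts. Scripts were tested on simulated data. Members and lists were chosen with earlier results of these data known. All members are named, and of other lists at most the 4 called genes with the largest change, as well as the 3 nearest patterns of 4 members. Same-numbered non-B mock and IR samples of Trp53+/+ mice deviated together, with correlations of 0.155 to 0.33 for all 4 numbers. However, only 2 of 4 mock and 3 of 4 IR samples correlated best with their own number, as in B cells. They were set side by side by number as a description, since no label makes them pairs. Alternatives were other pseudocounts, filters, scalings, thresholds, covariates, blocks and leaving out each sample.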

Additional observations from a re-analysis of the deposited data

Results flagged for a closer look

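In 3 of 40 groups of 4 samples (10 members in 4 groups) a single sample lay far from the others, by Dixon's ratio of its gap to the range of the group, which chance exceeds in about 1 of 20 groups, or 2 of 40. Fosb in Trp53+/+ non-B mock samples had a value of 2.73 RPKM (ratio 0.925), Jun in Trp53+/+ B mock samples one of 22.1 RPKM (0.86), and Junb in Trp53+/+ B samples after IR one of 136 RPKM (0.834). Without the Jun sample, mock replicate 1, the response of Jun in B cells was 2.24.

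The response to IR differed between genotypes in B cells for Fos (1.08), Jun (1.84) and Junb (0.60), in the test of the difference itself. Between the fractions of Trp53+/+ mice the difference for Junb was -0.50 (limma adjusted p = 0.0343), past the threshold on p and under that on size, so that it was not called.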

How the results depend on the processing

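No member changed direction with a call under any alternative, and Jun in Trp53+/+ B cells, Junb there, and Jun and Junb in Trp53+/+ non-B cells were called under all of them. In Trp53+/+ B cells 4 members were called with no threshold on size (Fos, Jun, Junb and Jund) and 2 to 3 when 1 sample was left out, and Fos was also called after quantile normalization (0.60, adjusted p = 0.0359). In Trp53-/- B cells 2 were called with no threshold on size, 0 with median-ratio scaling and 0 to 1 with a sample left out. The genotype difference in B cells was called for 1 member, Jun, at an adjusted p under 0.01, after quantile normalization and with either receptor covariate, and for 1 to 3 with a sample left out. There Fos was not called with no filter (adjusted p = 0.0593), and Egr1 was called with median-ratio scaling (1.07, adjusted p = 0.0429) and with values above 1 RPKM required in 4 samples (adjusted p = 0.0492). Ier2 was called between the mock fractions after quantile normalization (0.61, adjusted p = 0.000554). In Trp53-/- non-B cells the replicate block gave 1 (Jun), and so did the block with the Trp53-/- numbers crossed, added because the deviations of the same-numbered samples correlated at -0.264; the range with a sample left out was 0 to 1, and for the genotype difference 0 to 2. Between the responses of the fractions 1 member was called with no threshold on size (Junb), with a pseudocount of 1 or quantile normalization (Fos), and with a block by treatment and number (Jun), and 0 to 1 with a sample left out.

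With the replicate block in B cells, whose same-numbered Trp53+/+ samples correlated at 0.01 to 0.0906 (2 of 4 mock and 3 of 4 IR samples best with their own number) and share only a number, Fos lost its genotype difference (adjusted p = 0.0601). The block changed no other call beside Jun in Trp53-/- non-B cells. Where a call changed the cause was not tested. Depth limits Atf3 and Fosb in B cells, with as few as 17 and 20 reads in a sample, and with 2 Trp53-/- samples a group, intervals are wide.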
